A study of Mus musculus with 9 samples.

Results

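The 10 genes described here are listed as imprinted in the mouse and had more transcript in the adult pituitary gland than in Rathke's pouch: *Rasgrf1*, *Zdbf2*, *Sfmbt2*, *Mapt*, *Pde4d*, *Peg13*, *Plagl1*, *Peg3*, *Jade1* and *Inpp5f*. They were grouped as lying outside large imprinted clusters, although the study names a cluster after *Peg3* that also holds *Zim1* and *Usp29*. Imprinted or candidate imprinted neighbours at the loci of the 10 are described below. The 10 genes were chosen by measured values, the embryo and adult counts of these same libraries. Their fold changes are therefore a description, given with standard errors (SE) and without a test. All 10 were found by symbol among the 55450 counted genes. All 10 were also among the 19371 genes that averaged 5 counts or more across the 9 libraries and so entered the fit.

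The study compared the developing with the mature gland and asked which imprinted genes differ in expression between these stages. The embryo group held 7 samples of Rathke's pouch, the epithelial fold from which the anterior and intermediate lobes form, taken at e13.5 from embryos of genotype Sox2Egfp/+, in which a fluorescent reporter is placed at *Sox2*. The adult group held 2 samples labelled anterior pituitary, dissected at postnatal week 8 with the posterior lobe removed, which leaves the anterior and intermediate lobes, and no allele is given for them. Both groups had the mixed background 129Sv/c57BL6J and held both sexes, and sex is not given per sample. Poly(A) RNA with an RNA integrity number above 9 was made into directional libraries from 50 ng and read as 75 bp pairs. The embryo libraries held 16738863 to 28537311 read pairs counted on genes (median 24687556), and the adult libraries held 36421545 and 31191117. Levels are in CPM, the count of a gene relative to the total of its library, with the totals adjusted by TMM so that libraries can be compared. A count of 3 was worth 0.0962 to 0.220 CPM in an embryo library and 0.0727 and 0.0843 CPM in the adult libraries. Such floors and the intervals given for single counts cover counting error only, since PCR copies were not told apart.

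Hormone genes set the groups apart. A gene was called where its adjusted p-value was below 0.05 and its fold change above 4, which held for 14.6% of all tested genes higher in the adult and 11.3% higher in the embryo, the shares beside which each count of called markers stands. The summed level of 7 hormone markers was 870 to 1919 CPM in the embryos and 152399 and 159973 CPM in the adults. *Prl*, the prolactin gene, was the most abundant of them in adult 1, at 62090 CPM, and *Gh*, the growth hormone gene, in adult 2, at 63814 CPM, and 6 of the 7 were called higher in the adult. Of 7 markers of the pouch and its stem cells, 2 were called higher in the embryo and 5 were not called. Levels in such bulk samples cannot tell apart fewer cells of a type from less RNA per cell. *Avp* and *Oxt*, hormone genes of the posterior lobe, were at 1.74 and 3.43 CPM and at 1.57 and 1.69 CPM in adults 1 and 2. *Nkx2-1* and *Rax*, also markers of that lobe, were at 2.11 CPM or less in the adults. The remaining markers of that lobe were more abundant, with 21.5 and 40.1 CPM for *Scn7a* and 27.8 and 33.4 CPM for *Col25a1* in adults 1 and 2, against embryo means of 0.632 and 13.7 CPM. Of the 6 markers of the list, *Avp*, *Oxt* and *Scn7a* were called higher in the adult, *Nkx2-1* and *Rax* were called higher in the embryo, and *Col25a1* was not called. Their part in the levels of the 10 genes was not tested.

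The libraries of embryos 1 and 4 stood apart from the other 5. Their shares of read pairs falling on genes were 59.7% and 62.8%, where the 5 others had 73.9% to 80.0%. Their shares aligning in several places were 21.7% and 26.1%, where the 5 others had 14.1% to 19.7%. All 5 erythroid markers were called higher in the embryo, and their summed level was 130002 CPM in embryo 1 and 167815 CPM in embryo 4. In embryos 2, 3, 5, 6 and 7 it was 14713, 15209.5, 13582, 15022 and 5242 CPM, and in the adults 169 and 328 CPM. *Hbb-y*, an embryonic globin gene, was the most abundant of them, at 100745 CPM in embryo 1 and 128757 CPM in embryo 4. The call of *Hba-a1* was lost without adult 1 or adult 2 and after a correction for transcript length and GC content, though the log2 fold change, −4.91 as counted, was still −3.07 after that correction. Of the markers of other cell types, 4 of 5 for mesenchyme and 1 of 4 for endothelium were called higher in the embryo, and 1 of 4 for macrophages, *Ptprc*, was called higher in the adult, a call lost without adult 2 and after that correction (1.44 on the log2 scale). Without embryos 1 and 4 the log2 fold changes of the 10 genes, given with all libraries below, were 5.35 for *Rasgrf1*, 3.29 for *Zdbf2*, 2.89 for *Sfmbt2*, 2.66 for *Inpp5f*, 2.58 for *Mapt*, 2.26 for *Jade1*, 1.96 for *Plagl1*, 1.95 for *Pde4d*, 1.85 for *Peg3* and 1.55 for *Peg13*. Across the 4-fold threshold this moved *Pde4d* to below it and *Jade1* to above it.

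Imprinted genes are transcribed mainly or only from the copy inherited from a given parent, and for many of them the choice rests on DNA methylation laid down in the germ line at a control region. *Sfmbt2* and *Jade1* are known instead for a form of imprinting that rests on a histone mark inherited from the egg. The counts used here do not tell the parental copies apart, so imprinted expression of the 10 genes in these samples was not tested. The study did not establish the expressed copy of every gene it analysed. It states that some listed genes may be imprinted in few tissues, such as the placenta. Several imprinted genes act on growth, metabolism and behaviour after birth. The pituitary gland, whose hormones govern growth, lactation, reproduction and the stress response, is among the tissues in which imprinted genes are abundant. The 10 genes fall into distinct roles: signalling enzymes (*Rasgrf1*, *Inpp5f* and *Pde4d*), zinc finger and chromatin proteins (*Plagl1*, *Peg3*, *Zdbf2*, *Sfmbt2* and *Jade1*), a microtubule protein (*Mapt*) and a noncoding RNA (*Peg13*).

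Where a start site is known, the sequence around it can be set beside these roles. RefSeq windows of 300 bases, from 250 before to 50 after a start on GRCm38.p6, were matched for 8 of the 10 genes, with 13 windows in all, and none was matched for *Mapt* or *Peg13*. In 12 of the 13 windows there were more CpG dinucleotides, the bases at which methylation is laid down, than in the median window of the genome (7). The hexamer TGCCGC, known as the methylated motif bound by the imprint-keeping protein ZFP57, was searched on both strands (GCGGCA on the other). It was in 3813 of 32851 windows, or 11.6%, and in 2 of the 13, a window of *Zdbf2* with 3 matches and a window of *Plagl1* with 1. A match is a description of the letters and not a site. The window at the far start of *Zdbf2* (chr1:63200108-63200407, + strand, 15 CpG) and that of *Plagl1* (chr10:13090582-13090881, + strand, 26 CpG) are shown because they hold the hexamer. The window of *Peg3* (chr7:6730370-6730669, − strand, 13 CpG) is shown for the most abundant gene, and that of *Pde4d* (chr13:108653927-108654226, + strand, 2 CpG) because it had the fewest CpG. It was the only window matched for *Pde4d*, which has 20 annotated starts, so it does not stand for the other starts of that gene. Capitals mark CpG dinucleotides, and a hexamer reads tgcCGc or gCGgca, the latter with its first g also in capitals where that base ends another CpG, as in the window of *Plagl1*.
Zdbf2: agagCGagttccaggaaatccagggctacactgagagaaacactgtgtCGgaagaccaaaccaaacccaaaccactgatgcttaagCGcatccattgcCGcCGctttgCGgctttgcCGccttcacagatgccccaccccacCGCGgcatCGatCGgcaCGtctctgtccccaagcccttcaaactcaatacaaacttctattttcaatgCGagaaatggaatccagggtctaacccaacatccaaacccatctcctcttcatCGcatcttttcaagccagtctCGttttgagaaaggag
Plagl1: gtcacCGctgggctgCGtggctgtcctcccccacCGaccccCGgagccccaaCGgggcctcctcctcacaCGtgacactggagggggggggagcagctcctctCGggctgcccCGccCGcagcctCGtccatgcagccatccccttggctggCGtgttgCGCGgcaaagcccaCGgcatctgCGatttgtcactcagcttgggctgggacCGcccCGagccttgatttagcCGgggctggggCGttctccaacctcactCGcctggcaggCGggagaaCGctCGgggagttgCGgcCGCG
Peg3: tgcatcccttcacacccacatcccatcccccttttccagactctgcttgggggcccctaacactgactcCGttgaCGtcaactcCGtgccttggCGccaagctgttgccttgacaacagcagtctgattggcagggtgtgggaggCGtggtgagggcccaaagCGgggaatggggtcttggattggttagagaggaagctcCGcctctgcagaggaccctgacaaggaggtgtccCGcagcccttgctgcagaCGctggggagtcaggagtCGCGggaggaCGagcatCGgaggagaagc
Pde4d: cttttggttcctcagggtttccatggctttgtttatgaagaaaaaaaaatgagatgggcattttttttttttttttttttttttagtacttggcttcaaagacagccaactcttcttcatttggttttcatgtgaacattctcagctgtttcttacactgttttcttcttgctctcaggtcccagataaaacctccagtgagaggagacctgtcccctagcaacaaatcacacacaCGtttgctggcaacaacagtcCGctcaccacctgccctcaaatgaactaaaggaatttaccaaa

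In all 10 genes both adults were above all 7 embryos, which held for 32.9% of the tested genes. The fold change, adult over embryo, was above 4 in 6 of the 10 (*Rasgrf1*, *Inpp5f*, *Zdbf2*, *Sfmbt2*, *Mapt* and *Pde4d*). Of all tested genes, 14.6% were called higher in the adult and 11.3% higher in the embryo. Those calls also needed an adjusted p-value below 0.05, so these shares are stricter than the count of 6. After a correction for transcript length and GC content the fold change was above 4 in 2 of the 10, *Rasgrf1* and *Inpp5f*. The shares given here are without that correction. Since the contrast chose the genes, nothing is read from these shares. *Pde4d*, at 4.03-fold, lay just inside the threshold. *Plagl1* and *Jade1*, at 3.99-fold each, lay just outside, and *Peg13* (3.503-fold) and *Peg3* (2.57-fold) lay farther below it. The gap between the lower adult and the highest embryo was widest for *Rasgrf1*, with a ratio of 15.5, and narrowest for *Peg3*, with a ratio of 1.21.

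**Figure D1:**
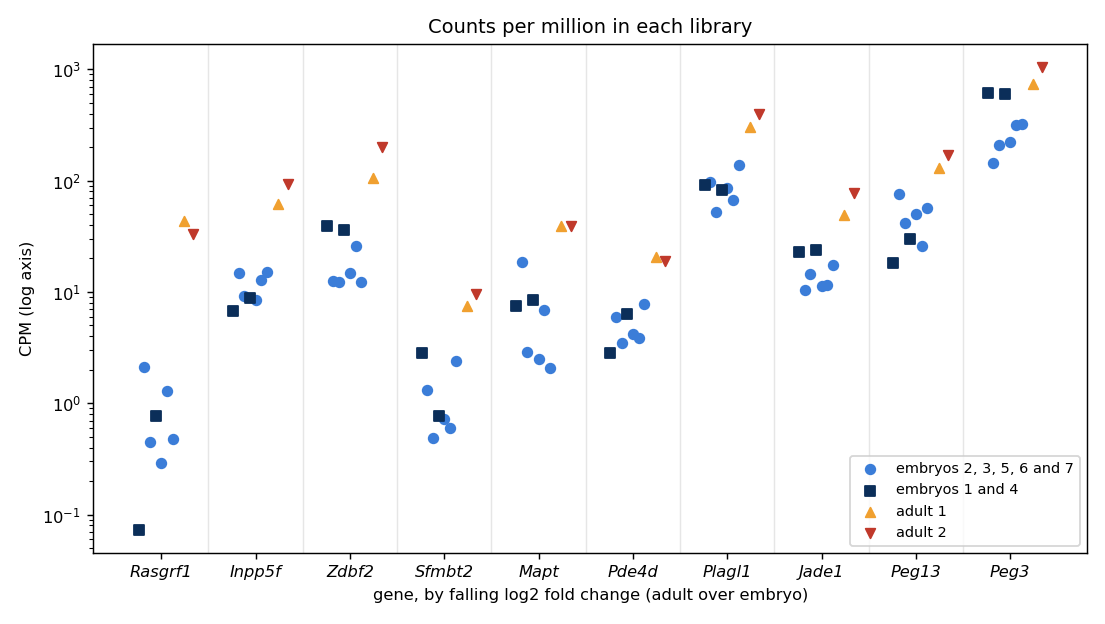
Level in CPM (log axis) of the 10 genes in each of the 9 libraries, with circles for 5 embryos, squares for embryos 1 and 4 and triangles for the adults. Both adults lie above all embryos in every gene, by 15.5 times for *Rasgrf1* and by 1.21 times for *Peg3*, where embryos 1 and 4 come close to adult 1.

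*Rasgrf1* (ENSMUSG00000032356, chromosome 9, 89909908 to 90026977, + strand) encodes an exchange factor that loads Ras with GTP and responds to calcium. In the embryos it had 0.0732 CPM at the lowest, 0.481 at the median and 2.13 at the highest, and in adults 1 and 2 it had 43.3 and 33.0 CPM. It was therefore low in every embryo, with most in embryo 2, and high in both adults. The lowest value, in embryo 1, was a count of 1 (exact Poisson 95% interval 0.0253 to 5.57), and the highest, in embryo 2, was a count of 63 (48.4 to 80.6). By CPM it ranked between 13068 and 16802 among the tested genes in the embryos and at 4488 and 5635 in the adults. The log2 fold change was 5.57 (SE 0.60), the largest of the 10, and 6.08 without embryo 2.

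*Inpp5f* (ENSMUSG00000042105, chromosome 7, 128611328 to 128696425, + strand) encodes a phosphatase that acts on phosphoinositide lipids of endosomal membranes. It had 6.81, 9.21 and 15.0 CPM at the lowest, median and highest embryo, and 62.1 and 92.8 CPM in the adults. The embryos lay close together, with an SD of 0.42 on the log2 scale (CPM plus 0.5, which narrows the spread of low genes such as *Rasgrf1*), the smallest of the 10, and the lower adult was 4.13 times the highest embryo. On the log2 scale the adults were higher by 2.83 (SE 0.30). Read pairs on the strand opposite to *Inpp5f* were also present in every library, 53 to 161 of them. They came to 145% of the gene's own count in embryo 1, 62.9% in embryo 4, 20.04% to 37.3% in the remaining 5, and 6.28% and 2.75% in adults 1 and 2. On that strand the next gene, *Mcmbp*, ends 15 bp away. With the unstranded count the log2 fold change of *Inpp5f* was 2.49, and after the length and GC correction it was 2.09.

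*Pde4d* (ENSMUSG00000021699, chromosome 13, 108449948 to 109953461, + strand) encodes a phosphodiesterase that breaks down cAMP, the second messenger of many hormone receptors. Its levels were 2.86, 4.20 and 7.79 CPM at the lowest, median and highest embryo and 20.8 and 19 CPM in the adults. The adults agreed closely, and embryo 7 was the highest embryo. Its log2 fold change of 2.01 (SE 0.36) came to lie on either side of the 4-fold threshold depending on the library left out, from 1.86 to 2.16, and was 1.72 after the length and GC correction. The gene spans 1504 kb and has 20 annotated starts, the most of the 10, so a count per gene does not say which isoform was present.

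*Plagl1* (ENSMUSG00000019817, chromosome 10, 13060504 to 13131694, + strand) encodes a zinc finger transcription factor known to act on other imprinted genes. It had 52.8 CPM in embryo 3, the lowest, 86.5 at the median and 138 in embryo 7, the highest, and 306 and 394 CPM in the adults. The embryos were spread less than the median gene, with an SD of 0.43 against 0.45 on the log2 scale, and the lower adult was 2.22 times the highest embryo. Between the groups the log2 fold change was 2.00 (SE 0.29), and 1.14 after the length and GC correction. Its count is per gene and does not say which of its 11 annotated starts was used.

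*Peg3* (ENSMUSG00000002265, chromosome 7, 6703892 to 6730431, − strand), which encodes a large zinc finger protein, had 145, 316 and 610 CPM at the lowest, median and highest embryo and 736 and 1048 CPM in the adults. Embryos 1 and 4, at 610 and 604 CPM, were close to adult 1, and the other 5 embryos ran from 145 to 324 CPM. This gave a log2 fold change of 1.36 (SE 0.44), the smallest of the 10, and of 1.85 without embryos 1 and 4. After the correction for length and GC content it was −0.11.

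*Zdbf2* (ENSMUSG00000027520, chromosome 1, 63273265 to 63314576, + strand), a zinc finger gene known for the growth of young mice, had 12.2, 14.7 and 39.1 CPM at the lowest, median and highest embryo and 106 and 202 CPM in the adults. Embryos 1 and 4 were again the highest, at 39.1 and 35.8 CPM, and the adults differed from each other more than for any other of the 10, by 1.90 times. The log2 fold change was 2.83 (SE 0.42), 3.29 without embryos 1 and 4, 3.23 or 2.30 without adult 1 or adult 2, and 0.71 after the length and GC correction.

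*Sfmbt2* (ENSMUSG00000061186, chromosome 2, 10370510 to 10595253, + strand) encodes a polycomb protein with MBT domains, and its span holds 119 annotated microRNA genes on the same strand. It was the least abundant of the 10 in the adults, with 7.46 and 9.58 CPM, against 0.487, 0.776 and 2.86 CPM at the lowest, median and highest embryo. In embryo 4 the value rested on a count of 11 (exact Poisson 95% interval 5.49 to 19.7). Embryos 1 and 7 were high and the other 5 were between 0.487 and 1.32 CPM. Adult over embryo, this was a log2 fold change of 2.71 (SE 0.58), and of 1.35 after the length and GC correction.

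*Jade1* (ENSMUSG00000025764, chromosome 3, 41555731 to 41616864, + strand) encodes a scaffold of the HBO1 histone acetyltransferase complex. It had 10.4, 14.5 and 23.8 CPM at the lowest, median and highest embryo and 49.3 and 77.6 CPM in the adults. Here too embryos 1 and 4 were the highest, at 22.8 and 23.8 CPM. The log2 fold change was 2.00 (SE 0.32), with 2.26 without those embryos, 2.30 or 1.64 without adult 1 or adult 2, and 1.01 after the length and GC correction.

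*Mapt* (ENSMUSG00000018411, chromosome 11, 104231390 to 104332090, + strand) encodes tau, a protein that binds microtubules and is abundant in neurons. It had 2.08, 6.83 and 18.4 CPM at the lowest, median and highest embryo, and the adults, at 39.2 and 39.5 CPM, were nearly equal. Embryo 2 was the highest, and the next, embryo 4, had 8.46 CPM. The embryos' SD on the log2 scale, 1.04, was larger than that of 97.1% of the tested genes. The log2 fold change was 2.50 (SE 0.57), 2.98 without embryo 2 and 1.96 after the length and GC correction. Several marker lists were at their highest or lowest among the embryos in embryo 2 too. The summed level of the endothelial markers was highest there, at 399 CPM, where the next embryo had 242. So was that of the macrophage markers, at 220 CPM, where the next had 148. That of the pouch and stem cell markers was the lowest, at 533 CPM, where the next had 677. The sum of 8 neural markers was 472 CPM, against 155, 218, 126, 132, 288 and 128 CPM in embryos 1, 3, 4, 5, 6 and 7 and 314 and 303 CPM in the adults. *Tubb3*, at 188 CPM, was the most abundant of them in embryo 2. Of the 8, *Snap25* was called higher in the adult, *Fabp7*, *Nkx2-1* and *Rax* were called higher in the embryo, and 4 were not called. The part of these lists in the level of *Mapt* was not tested.

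*Peg13* (ENSMUSG00000106847, chromosome 15, 72805600 to 72810324, − strand) is a noncoding RNA of 1 exon that lies inside an intron of *Trappc9*, on the same strand. It had 18.2, 42.1 and 75.6 CPM at the lowest, median and highest embryo and 131 and 168 CPM in the adults. Embryo 1 was the lowest embryo and embryo 2 the highest, which is the reverse of their order for *Peg3*. The adults were higher by 1.81 on the log2 scale (SE 0.38), and by 1.55 without embryos 1 and 4. *Trappc9* itself had 61.1 ± 11.9 CPM (SD, n = 7) in the embryos and 71.0 ± 5.02 CPM (SD, n = 2) in the adults, a log2 fold change of 0.22 (SE 0.26, adjusted p = 0.507). A read pair of either RNA that falls in the *Peg13* exon is counted on *Peg13*.

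Levels can be compared between genes only per length, here as CPM per kb of the union of each gene's exons. In the adults *Peg3* was at 67.0 ± 16.6 (SD, n = 2), *Plagl1* at 44.8 ± 7.97 and *Peg13* at 31.7 ± 5.61. *Zdbf2* followed at 12.2 ± 5.32, *Inpp5f* at 9.31 ± 2.61, *Jade1* at 7.47 ± 2.36 and *Mapt* at 5.22 ± 0.0231. *Rasgrf1* was at 3.45 ± 0.662, *Pde4d* at 1.66 ± 0.106 and *Sfmbt2* at 0.934 ± 0.164. The order of the 10 was the same in both adults, although *Zdbf2*, *Inpp5f* and *Jade1* were within their spread of each other. In the embryos *Peg3* (26.1 ± 14.1 CPM per kb, SD, n = 7), *Plagl1* (11.2 ± 3.43) and *Peg13* (9.03 ± 4.21) were again the 3 highest. In embryo 2 their order was turned, with 16.0 for *Peg13*, 12.4 for *Plagl1* and 10.9 for *Peg3*, and in embryo 3 *Peg13* (8.90) was above *Plagl1* (6.75). The lower 7 differed in order from the adults: *Jade1* was at 1.88 ± 0.654 and *Zdbf2* at 1.72 ± 0.927 CPM per kb, ahead of *Inpp5f* (1.30 ± 0.397) and *Mapt* (0.923 ± 0.756), neighbours that did not differ beyond their spread. *Pde4d* (0.410 ± 0.15) and *Sfmbt2* (0.143 ± 0.104) came before *Rasgrf1* (0.0708 ± 0.0641), whose mean was the lowest of the 10 in the embryos, within the spread of *Sfmbt2* and above it in embryos 2 and 6, and the eighth in the adults. Per kb of the longest transcript the order of the adult means differed, with *Inpp5f* (16.4) above *Zdbf2* (12.2) and *Rasgrf1* (8.01) above *Mapt* (7.49), and *Pde4d* was at 4.73 in place of 1.66.

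All 10 genes had a longest transcript above the median of the tested genes (2969 bp), from 4207 bp for *Pde4d* to 12629 bp for *Zdbf2*, with a median of 5256.5 bp. *Zdbf2*, *Sfmbt2* (7874 bp) and *Peg3* (8694 bp) were in the decile of the longest transcripts, where the median log2 fold change of all tested genes was 1.39. *Mapt*, *Plagl1* and *Jade1* were in decile 9 (median 0.85), and *Rasgrf1*, *Inpp5f*, *Pde4d* and *Peg13* in decile 8 (median 0.51). In the decile of the shortest transcripts that median was −1.58, so the adult libraries held relatively more of the long transcripts. With a correction of every library for length and GC content, the median of the 10 genes went from 2.26 to 1.41, beside 0.04 and −0.01 over all tested genes. Of the 10, 9 were still positive and 2 still above 4-fold, *Rasgrf1* with a log2 fold change of 5.15 (SE 0.59) and *Inpp5f* with 2.09 (SE 0.24). *Mapt* (1.96), *Pde4d* (1.72) and *Peg13* (1.47) moved less than those with the longest transcripts. *Zdbf2* went from 2.83 to 0.71 (SE 0.37), *Sfmbt2* from 2.71 to 1.35 (SE 0.53), and *Peg3* from 1.36 to −0.11 (SE 0.47), where the stages did not differ beyond the error. *Plagl1* (1.14) and *Jade1* (1.01) stood in between. The longest transcript is an imperfect measure for some of the 10: that of *Rasgrf1* (4766 bp) has 2 exons, whereas the union of its exons is 11063 bp. Whether the relation with length arose in the tissue or in the libraries was not tested.

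**Figure D2:**
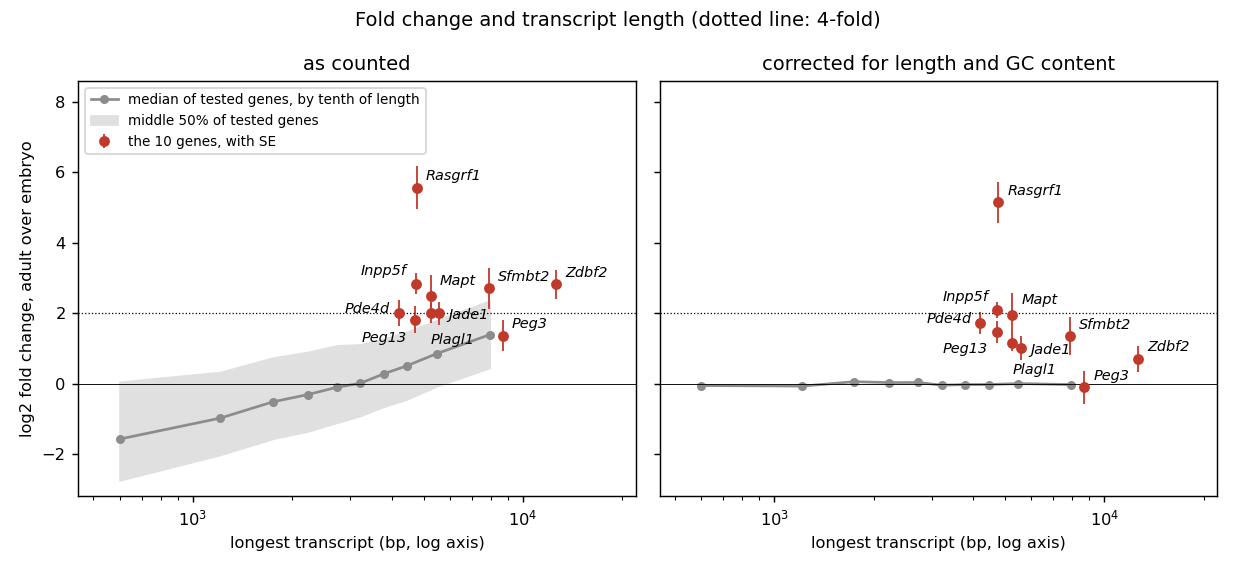
Log2 fold change, adult over embryo, against the length of the longest transcript (log axis) as counted (left) and after correction for length and GC content (right), with SE bars for the 10 genes and the median of all tested genes by decile of length in grey. As counted, the grey line climbs from −1.58 to 1.39; after correction *Rasgrf1* (5.15) and *Inpp5f* (2.09) are above the dotted 4-fold line and *Peg3* (−0.11) is at 0.

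Among the embryos the 10 genes did not vary together. The SD on the log2 scale was above the median of all tested genes (0.45) in 8 of the 10, from 0.47 for *Pde4d* to 1.04 for *Mapt*, and below it in *Inpp5f* and *Plagl1*. *Zdbf2*, *Peg3* and *Jade1* were the genes with their highest values in embryos 1 and 4. Without those embryos, a choice made after seeing the data, their SD went from 0.73 to 0.44, from 0.78 to 0.48 and from 0.48 to 0.29, while for the other 7 it moved less. *Peg13* was lowest in embryo 1 and below its median in embryo 4. The erythroid markers and the share of read pairs on genes moved with these values. So did the hormone marker sum, at 1919 and 1620 CPM in embryos 1 and 4, against 870 to 1303 CPM in the other 5. The posterior lobe marker sum was lower in embryos 1 and 4, at 57.2 and 56.4 CPM, against 75.6 to 153 CPM in the other 5. Shares of read pairs not aligned were 10.3% and 4.74% there, against 0.863% to 2.54%, and shares aligned outside genes 6.31% and 4.24%, against 2.40% to 3.07%. The part of these measures in the values was not tested. *Rasgrf1*, *Mapt* and *Peg13* were highest in embryo 2, and *Peg3* and *Jade1* were lowest there. *Sfmbt2*, *Pde4d*, *Plagl1* and *Inpp5f* were high in embryo 7, where the erythroid sum was lowest. The mesenchyme sum was highest there, at 2140 CPM, where the next embryo had 1944, and the hormone sum was lowest, at 870 CPM, where the next had 1097. The part of these lists in the levels of the 4 genes was not tested.

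**Figure D3:**
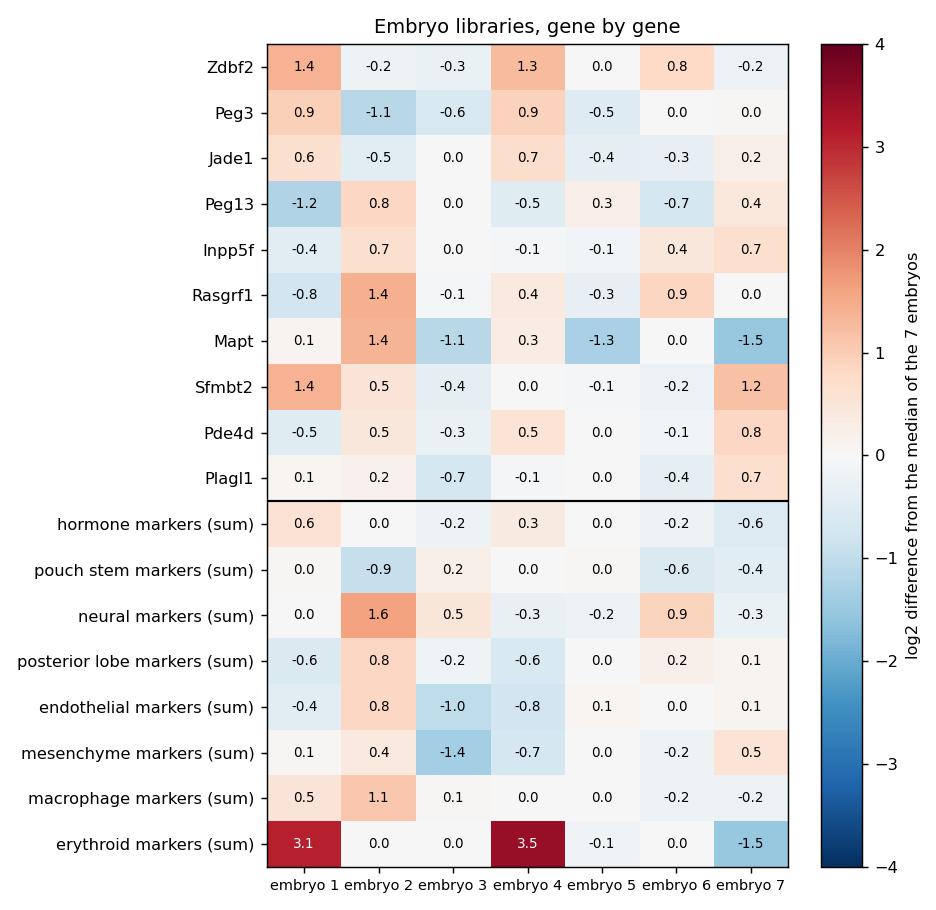
Difference of each embryo library from the median of the 7 embryos on the log2 scale, for the 10 genes (top, CPM plus 0.5) and for the summed CPM of each marker list (bottom). Embryos 1 and 4 are high for *Zdbf2*, *Peg3* and *Jade1* and for the erythroid markers (130002 and 167815 CPM), and embryo 2 is high for *Mapt* (18.4 CPM) and the neural markers (472 CPM).

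The adults also differed. Adult 2 was above adult 1 in 8 of the 10 genes, while this held for 46.0% of all tested genes, and the exceptions were *Rasgrf1*, with a ratio of 0.761, and *Pde4d*, with 0.914. The ratio was 1.90 for *Zdbf2*, 1.57 for *Jade1*, 1.496 for *Inpp5f* and 1.42 for *Peg3*, and 1.01 for *Mapt*. With 2 adults such differences cannot be set against a spread, and since the adults were a male and a female, they cannot be told apart from a difference between the sexes. Hormone markers differed between the adults as well, with 27000 and 61903 CPM for *Pomc*, 62090 and 29377 CPM for *Prl*, and 1361 and 377 CPM for *Fshb* in adults 1 and 2, and so did the posterior lobe marker *Scn7a*, with 21.5 and 40.1 CPM. Their part in the ratios of the 10 genes was not tested. The fold changes of the 10 genes under each alternative are shown in the plot of alternatives.

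**Figure D4:**
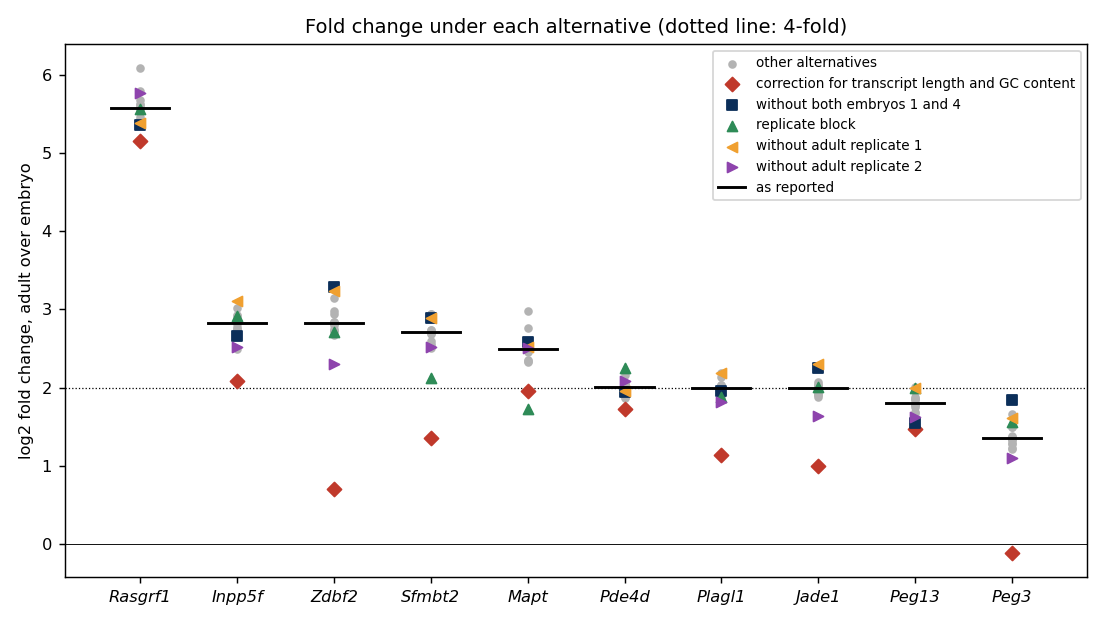
Log2 fold change, adult over embryo, of the 10 genes as reported (bars) and under each alternative (symbols), with a dotted line at 4-fold. The length and GC correction gives the lowest value for 9 of the 10, down to 0.71 for *Zdbf2* and −0.11 for *Peg3*, and for *Mapt* the replicate block does (1.73).

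Over the 7 embryos, each gene was compared with 11763 genes that averaged 100 counts or more, by Pearson correlation of log2 CPM. The correlations are descriptive, since the points share library effects such as the one that sets embryos 1 and 4 apart. The closest genes were also picked from 11763 over only 7 points, which by itself favours high values. The closest to *Zdbf2* were *Zfp950* (r = 0.995), *Efcab10* (0.995) and *Camta1* (0.991), and the closest to *Peg3* were *Nek1* (0.989), *Epha7* (0.989) and *Casp8ap2* (0.985). For *Plagl1* they were *Pdcd4* (0.986), *Sos2* (0.980) and *Strn* (0.978), and for *Sfmbt2* they were *Pag1* (0.989), *Syt1* (0.957) and *Srpk2* (0.947). For *Mapt* they were *Myl9* (0.972), *Metrn* (0.968) and *Gngt2* (0.949), all called higher in the embryo, the opposite direction to *Mapt* itself. As an example, *Metrn* had a log2 fold change of −3.83 (SE 0.41, adjusted p = 7.6e-06). The closest to *Rasgrf1* were *Degs1* (0.968), *Mlc1* (0.951) and *Cdk5r1* (0.9501). To *Pde4d* they were *Rnf150* (0.962), *Snx25* (0.952) and *Foxn2* (0.951), and among those closest to *Peg13* were *Spred3* (0.980) and *Gng4* (0.976). Those of *Jade1* were *Rfx3* (0.964), *Igf2bp3* (0.961) and *Cdk6* (0.960), and those of *Inpp5f* were *Fbxl5* (0.981), *Arhgap24* (0.973) and *Apcdd1* (0.958). Opposite to *Jade1*, *Igf2bp3* was called higher in the embryo, with a log2 fold change of −7.33 (SE 0.45, adjusted p = 8.8e-08). *Rfx3* was called higher in the adult (2.27), and *Cdk6* was not called (1.21). When the 2 embryos farthest from the gene's median were left out, an alternative chosen after seeing the data, 6 of the 30 correlations moved by at least 0.1. The largest change was that of *Sfmbt2* with *Srpk2*, to 0.592, and the 3 of *Rasgrf1* were among the 6, at 0.860, 0.847 and 0.780.

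**Figure D5:**
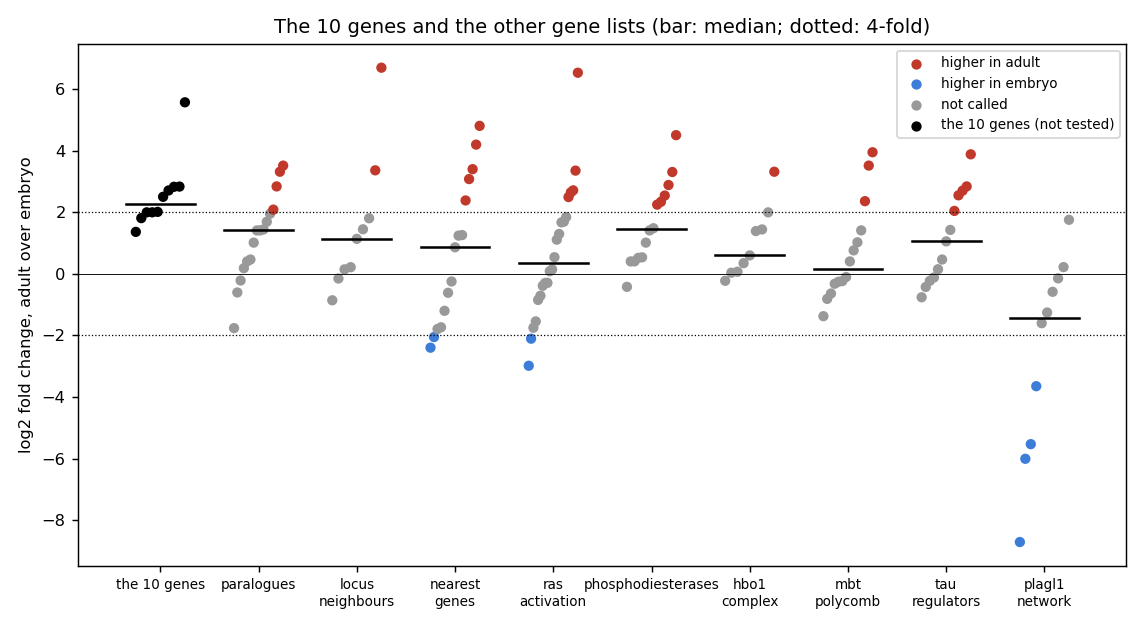
Log2 fold change, adult over embryo, of the 10 genes (black, not tested) and of the tested genes of 9 other lists, coloured by call, with bars at the medians and dotted lines at 4-fold. The median is 2.26 for the 10 genes, 1.41 for their paralogues and −1.43 for imprinted genes linked to *Plagl1*; the fitted values of *Gm13261* and *Ankrd34c* rest on embryo counts of at most 3.

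The counts of called genes in the lists that follow stand beside 14.6% of all tested genes called higher in the adult and 11.3% higher in the embryo, and their medians beside 0.04 and, after the length and GC correction, −0.01 over all tested genes. Nothing particular to a list is read from them. Of 16 paralogues and related enzymes, 4 were called higher in the adult, none in the embryo, and 12 were not called, with a median log2 fold change of 1.41, which was 0.52 after the length and GC correction. *Dbf4*, the relative of *Zdbf2*, was at −1.76 (SE 0.37, adjusted p = 0.00143), below the 4-fold threshold, and passed it after that correction (−2.10). Beside *Mapt*, its relative *Map2* rose from 40.5 ± 13.9 CPM (SD, n = 7) to 290 ± 30.5 CPM (SD, n = 2), which is a log2 fold change of 2.84 (SE 0.30, adjusted p = 6.7e-06), whereas *Map4* did not pass (0.46, adjusted p = 0.214). Beside *Jade1*, *Jade2* rose by 3.31 (SE 0.56, adjusted p = 0.000291), and *Jade3*, at 1.44 (adjusted p = 0.00336), was below the 4-fold threshold. Beside *Plagl1*, *Plag1* passed with 2.08 (SE 0.66, adjusted p = 0.0166), and *Plagl2* was not called (−0.61, adjusted p = 0.17). Beside *Inpp5f*, *Synj1*, which also carries a Sac phosphatase domain, rose by 3.51 (SE 0.26, adjusted p = 3.5e-07). The relatives of *Pde4d* (*Pde4a*, *Pde4b* and *Pde4c*), of *Sfmbt2* (*Sfmbt1*) and of *Rasgrf1* (*Rasgrf2*) were not called. *Rasgrf2* was at 0.155 ± 0.128 CPM (SD, n = 7) in the embryos and 0.513 ± 0.348 CPM (SD, n = 2) in the adults. The call of *Plag1* was lost without any of embryos 1, 2, 3 and 6 or either adult. It was also lost without both embryos 1 and 4 (1.83) and after the length and GC correction (1.12). That correction also ended the call of *Map2* (1.85), but not those of *Jade2* (2.57) and *Synj1* (2.30).

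Around *Rasgrf1*, 22 genes of Ras activation were tested, of which 5 were called higher in the adult, 2 higher in the embryo and 15 were not called. The median was 0.34, and −0.12 after the length and GC correction. *Rasgrp1*, another exchange factor for Ras, rose from 0.184 ± 0.137 CPM (SD, n = 7) to 17.8 ± 12.0 CPM (SD, n = 2), which is a log2 fold change of 6.53 (SE 0.60, adjusted p = 2.1e-06). *Sos1* (2.49) and *Sos2* (2.65), the exchange factors downstream of growth factor receptors, *Nf1* (2.71), a Ras GTPase activator, and *Braf* (3.35), a kinase that Ras activates, also rose, with adjusted p from 3.0e-06 to 2.1e-05. After that correction these 4 were below 4-fold (0.71, 1.55, 0.79 and 1.51), while *Rasgrp1* was at 5.73. *Rasgrp2* fell by 2.98 (SE 0.51, adjusted p = 0.000328) and *Rasgrp4* by 2.11 (SE 0.76, adjusted p = 0.0324). The call of *Rasgrp4* was lost without embryo 4, embryo 5 or adult 1, without both embryos 1 and 4 (−1.99), and with scaling by library size alone. *Nras*, which encodes a Ras protein, was not called as counted (−1.55, SE 0.26, adjusted p = 0.000302) and passed after the length and GC correction (−2.47).

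Around *Pde4d*, 14 of 15 listed cyclic nucleotide phosphodiesterases were tested, and 6 were called higher in the adult, none in the embryo (median 1.44, and 1.07 after the length and GC correction). *Pde10a* had the largest change, from 2.93 ± 0.955 CPM (SD, n = 7) to 66.9 ± 16.3 CPM (SD, n = 2), which is a log2 fold change of 4.50 (SE 0.32, adjusted p = 2.5e-07). *Pde1a* (3.31), *Pde3b* (2.88), *Pde8a* (2.54), *Pde1c* (2.34) and *Pde7b* (2.25) were the others. After the correction, *Pde10a* (3.30), *Pde8a* (2.42) and *Pde1a* (2.34) were still called, and *Pde3b* (1.56), *Pde7b* (1.12) and *Pde1c* (0.58) were not. The call of *Pde7b* was also lost without adult 1 and without both embryos 1 and 4 (1.97).

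Of 9 genes listed for the HBO1 complex, *Jade2*, a relative of *Jade1*, was the only gene called (median 0.60, and 0.12 after the length and GC correction). *Kat7*, the acetyltransferase, had 68.9 ± 13.9 CPM (SD, n = 7) in the embryos and 72.3 ± 0.723 CPM (SD, n = 2) in the adults (0.07, adjusted p = 0.842). Of 14 tested MBT domain and polycomb genes, related to *Sfmbt2*, 3 were called higher in the adult and none in the embryo (median 0.15, and −0.30 after the length and GC correction). They were *L3mbtl4* (3.95, SE 0.76, adjusted p = 0.000711), *Phc3* (3.51, SE 0.31, adjusted p = 1.4e-06) and *Scml4* (2.36, SE 0.37, adjusted p = 0.000153). *Phc3* and *Scml4* were below 4-fold after that correction (1.61 and 1.86), while *Mbtd1*, at −0.81 as counted, was called higher in the embryo (−2.001). *Yy1*, which encodes a DNA-binding partner of *Sfmbt2* in flies and mammals, was not called (0.40, adjusted p = 0.256).

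Of 13 kinases, kinase activators and microtubule proteins around *Mapt*, 5 were called higher in the adult and none in the embryo (median 1.05, and 0.05 after the length and GC correction). *Cdk5r2*, an activator of the tau kinase *Cdk5*, rose from 3.92 ± 1.95 CPM (SD, n = 7) to 57.6 ± 5.41 CPM (SD, n = 2), which is a log2 fold change of 3.88 (SE 0.41, adjusted p = 6.8e-06), and was at 4.05 after the correction. The others were *Map2*, *Map1a* (2.699), *Map1b* (2.55) and *Mark1* (2.04), none of which kept its call after that correction (1.85, 1.28, 0.88 and 1.80). The call of *Mark1* was also lost without any of embryos 1, 3, 4 and 6, without both embryos 1 and 4 (1.87) or without adult 2.

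Of 10 imprinted genes linked to *Plagl1*, 4 were called higher in the embryo, none in the adult and 6 were not called (median −1.43, and −1.87 after the length and GC correction). *H19* fell from 3395 ± 646 CPM (SD, n = 7) to 8.12 ± 1.55 CPM (SD, n = 2), which is a log2 fold change of −8.71 (SE 0.53, adjusted p = 7.2e-08). *Igf2* (−6.01), *Cdkn1c* (−5.53) and *Grb10* (−3.65), all genes of fetal growth, fell too, and all 4 kept their call after the length and GC correction. *Gnas*, with 6905 ± 231 CPM (SD, n = 2) in the adults, had the highest adult level of the list and a log2 fold change of 1.75 (adjusted p = 0.000167), below the 4-fold threshold. With the unstranded count *Gnas* passed it.

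Of the imprinted or candidate imprinted neighbours at the loci of the 10 genes, 9 were tested and 2 were called, both higher in the adult (median 1.14, and −0.09 after the length and GC correction). *Kcnk9*, a potassium channel gene at the locus of *Peg13*, rose from 3.72 ± 3.24 CPM (SD, n = 7) to 38.7 ± 4.42 CPM (SD, n = 2), which is a log2 fold change of 3.36 (SE 0.62, adjusted p = 0.000538), and was at 1.72 after the correction. *Gm13261*, a noncoding RNA on the opposite strand at the start of *Sfmbt2*, had at most 0.0641 CPM in any embryo and 1.09 and 2.30 CPM in the adults. Beside *Peg3*, *Usp29* (−0.15, adjusted p = 0.711) and *Zim1* (0.15, adjusted p = 0.841) were not called, and *Zim2* and *Zim3* were below the minimum count. Beside *Zdbf2*, *Adam23* had a log2 fold change of 1.80 (SE 0.42, adjusted p = 0.00289), below the 4-fold threshold, and passed it without embryo 2 or adult 1. *Phactr2* beside *Plagl1* was likewise below it (1.45, SE 0.30, adjusted p = 0.00131). *Hymai* and *Peg3os* were not in the annotation used.

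The nearest protein-coding gene on each side that did not overlap the gene and was on no other list gave 20 genes, of which 15 were tested, 5 were called higher in the adult and 2 higher in the embryo (median 0.86, and 0.64 after the length and GC correction). The 2 neighbours of *Sfmbt2* both rose, *Itih5*, 114 kb away, by 3.40 (SE 0.34, adjusted p = 3.9e-06) and *Prkcq* by 3.08 (SE 0.49, adjusted p = 0.000175). *Rab3c*, a gene of secretory vesicles beside *Pde4d*, rose from 3.41 ± 1.43 CPM (SD, n = 7) to 62.3 ± 7.01 CPM (SD, n = 2), which is a log2 fold change of 4.19 (SE 0.35, adjusted p = 9.9e-07). *Sclt1* beside *Jade1* (2.38, adjusted p = 0.000883) and *Ankrd34c* beside *Rasgrf1*, at no more than 0.0962 CPM in any embryo, were the others called higher in the adult. In the other direction, *Eef1b2* beside *Zdbf2* fell by 2.40 (SE 0.43, adjusted p = 0.000471) and *Sf3b5* beside *Plagl1* by 2.05 (SE 0.34, adjusted p = 0.000235). The call of *Sf3b5* was lost without adult 2, without both embryos 1 and 4 (−1.97) and with scaling by library size alone. *Mcmbp*, which lies 15 bp from *Inpp5f* on the other strand, was not called (−0.25, adjusted p = 0.457).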

How the data were processed

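RNA was sequenced from 7 embryo and 2 adult samples, grouped by their labels. The authors trimmed the reads with Trimmomatic 0.39, aligned them to mm10 with STAR 2.7.5b and deposited raw counts of read pairs per gene for 55450 genes, unstranded and for each strand (per the submitters' processing notes and the file contents). Column 4, the strand-specific count, was used. Symbols, positions in GRCm38 and transcript lengths came from GENCODE mouse release 21 (Ensembl release 96), and promoter windows from RefSeq on GRCm38.p6.

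Counts were scaled by TMM and fitted with the quasi-likelihood test of edgeR 4.0.16 in R 4.3.3, with stage as the only term, for genes averaging 5 or more counts. Calls needed a fold change above 4 and p-values, adjusted by Benjamini-Hochberg over all tested genes, below 0.05. The script was tested on simulated data. Correlations, SDs on the log2 scale and differences from the embryo median used log2 of CPM plus a pseudocount of 0.5. Length and GC content were corrected per library by splines (4 degrees of freedom) fitted on genes averaging 50 or more counts. Other alternatives were DESeq2 1.42.0, other scalings and filters, the unstranded count, other thresholds, a replicate block and libraries left out.

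The 10 genes and the gene lists (locus neighbours, paralogues, Ras activation, phosphodiesterases, HBO1 complex, MBT and polycomb genes, tau regulators, genes linked to *Plagl1*, and markers of hormone, pouch, neural, posterior lobe, endothelial, mesenchymal, macrophage and erythroid cells) were chosen with earlier results of these data known. Of a list, and of the nearest protein-coding genes on each side of the 10 that did not overlap them and were on no other list, genes past the threshold with the largest changes and genes with high levels were named, together with the 3 genes most like each of the 10 over the embryos. Those named for a lost call or a value near the threshold were chosen after their values were seen. Values of some of these genes are not reported here.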

Additional observations from a re-analysis of the deposited data

Results flagged for a closer look

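Of 19 sets of values compared over the 7 embryos, 2 had an embryo far from the others, by a gap of more than 0.568 of the whole range, a criterion that chance meets in about 1 in 20 groups. For *Mapt* it was embryo 2, at 18.4 CPM, where the nearest other embryo had 8.46 CPM. For the summed level of the posterior lobe markers it was again embryo 2, at 153 CPM, where the nearest other had 97.9 CPM, a gap of 0.569 that barely met the criterion. *Rax* (92.7 CPM) and *Nkx2-1* (41.6 CPM) were the most abundant of that list in embryo 2 and are on the list of neural markers as well, and *Avp* was at 0 in every embryo. The part of these markers in the level of *Mapt* was not tested.

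On the strand opposite to *Inpp5f*, which the reported counts do not use, the lowest count in any library was 53, above the 3 counts that a count of 0 allows.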

How the results depend on the processing

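Each of the 10 genes was higher in the adult under every alternative run, except *Peg3* after the length and GC correction, where its log2 fold change was −0.11. The cause was not tested. That correction also moved 5 others by more than the spread between embryos; no other alternative moved any of the 10 so far. Of 18 alternatives, *Rasgrf1* and *Inpp5f* were above 4-fold in 18, *Zdbf2* and *Sfmbt2* in 17, *Mapt* in 16, *Pde4d* and *Jade1* in 9, *Plagl1* in 6, *Peg13* in 1 and *Peg3* in 0. Above 4-fold, 2819 were genes called higher in the adult and 2182 genes called higher in the embryo. These numbers rest on the fold threshold by construction: above 2-fold, 4805 were genes called higher in the adult and 4155 genes called higher in the embryo, and 5298 and 4650 without a threshold on fold change. With 1 library left out the numbers above 4-fold ran from 2201 to 2958 and from 1482 to 2362; where an adult was left out, the lone adult is assumed to vary like the embryos. With replicate number as a replicate block they were 2440 and 1796. Replicate numbers only number different animals: the deviations of same-numbered samples correlated at 0.0331 and 0.000303. Scaling by library size alone moved the median log2 fold change of all tested genes from 0.04 to 0.26. Of 157 genes of the other lists, 17 lost and 3 gained their call after the length and GC correction. Per kb of the longest transcript in place of the union of exons, 12 of 20 levels moved by more than their spread, and *Peg3*, *Plagl1* and *Peg13* kept the highest mean levels. With 2 adults, the spread within that group rests on a single difference, and in embryos *Rasgrf1* and *Sfmbt2* rest on few counts, down to 1 and 11.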

Other observations

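Opposite-strand counts stayed low for the other 9 of the 10 genes in most libraries. For *Plagl1*, with 35 in embryo 2 and 48 and 54 in the adults, they came to 1.21%, 0.38% and 0.385% of its own count, and for *Jade1*, with 38 and 29 in the adults, to 1.87% and 1.05%. In embryo 1 they came to 15.4% for *Pde4d*, from a count of 6, 5.88% for *Mapt*, also from a count of 6, and 3.86% for *Jade1*, from a count of 12. For *Pde4d* they came to 6.03% in embryo 5 and 5.13% in embryo 6, from counts of 7 and 4.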
